A study of Mus musculus with 8 samples.

Results

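Circadian clock genes were followed through acute emotional experience in mouse brain, as the 10 genes Per1, Per2, Per3, Cry1, Cry2, Nr1d1, Nr1d2, Dbp, Ciart and Bhlhe40, found by symbol among the 33885 symbols of both count tables. Of these, 9 had counts and 1, Per3, was listed at 0 in all 8 libraries. Per1 and Bhlhe40, the members known to be acutely inducible by stimuli, were set beside the other members. Total RNA came from C57Bl6J male adults, in 4 groups of 2 libraries. The nucleus accumbens (NAc), a ventral striatal region of reward learning, was taken from mice conditioned to a place with cocaine at 7.5 mg/kg intraperitoneally (cocaine, replicates 1 and 2) and from home-cage mice. The medial prefrontal cortex (mPFC) was taken from mice defeated by CD1 aggressors (social defeat, replicates 1 and 2) and from home-cage mice. Tissue of both experiences was collected 15 minutes afterwards. The home-cage mice met no stimulus, so injection, handling, chamber and drug cannot be told apart in NAc, nor can novelty, contact and defeat in mPFC. The labels give no time of day of dissection. They also do not say that the replicates were different animals, and a p-value here covers only the variation among the libraries, which may be technical.

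The molecular clock is a feedback loop in transcription. CLOCK or NPAS2, paired with BMAL1 (gene Arntl), binds E-boxes and drives Per, Cry, Nr1d, Dbp, Ciart and Bhlhe40. The period and cryptochrome proteins then repress this activator, CIART and BHLHE40 repress it as well, REV-ERB alpha and beta (Nr1d1 and Nr1d2) repress Arntl, and DBP acts on D-boxes as an output of the loop. Per1 also carries cAMP response elements through which activity and hormones raise its transcription quickly, which is how light resets the clock in the suprachiasmatic nucleus. Bhlhe40 is induced by activity and many other stimuli. Outside that nucleus these genes also cycle, so their levels in NAc and mPFC depend on the hour.

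Promoter windows of 250 bases before to 50 after a gene's start were read from RefSeq on GRCm38.p6, which gave 9 windows for 8 members and none for Per2 and Bhlhe40. The windows of Per1, Ciart and Cry1 are shown because they hold the E-boxes found among the members and, for Per1 and Cry1, the core of the cAMP response element. Capitals mark the E-box CACGTG and the response element core TGACG, and each sequence runs 5′ to 3′ on the gene's strand.

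Per1, first start, chr11:69098699-69098998, plus strand: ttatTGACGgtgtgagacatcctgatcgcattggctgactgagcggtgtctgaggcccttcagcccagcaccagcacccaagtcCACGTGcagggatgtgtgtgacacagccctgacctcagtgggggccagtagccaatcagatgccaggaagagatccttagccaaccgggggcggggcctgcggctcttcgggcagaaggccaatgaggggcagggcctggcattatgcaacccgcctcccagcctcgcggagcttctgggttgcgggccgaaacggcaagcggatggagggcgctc
Per1, second start, chr11:69099902-69100201, plus strand: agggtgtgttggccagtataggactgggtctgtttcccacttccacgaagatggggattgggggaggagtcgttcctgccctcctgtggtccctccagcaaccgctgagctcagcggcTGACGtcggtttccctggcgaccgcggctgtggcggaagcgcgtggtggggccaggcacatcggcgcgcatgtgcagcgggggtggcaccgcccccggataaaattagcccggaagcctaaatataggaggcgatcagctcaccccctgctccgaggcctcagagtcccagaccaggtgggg
Ciart, chr3:95882179-95882478, minus strand: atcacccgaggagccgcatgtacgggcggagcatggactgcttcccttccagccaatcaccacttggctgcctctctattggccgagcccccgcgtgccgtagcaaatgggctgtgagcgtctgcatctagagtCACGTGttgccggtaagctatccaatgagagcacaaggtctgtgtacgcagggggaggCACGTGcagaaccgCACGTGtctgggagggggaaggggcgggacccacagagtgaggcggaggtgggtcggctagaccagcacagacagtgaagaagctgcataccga
Cry1, chr10:85185005-85185304, minus strand: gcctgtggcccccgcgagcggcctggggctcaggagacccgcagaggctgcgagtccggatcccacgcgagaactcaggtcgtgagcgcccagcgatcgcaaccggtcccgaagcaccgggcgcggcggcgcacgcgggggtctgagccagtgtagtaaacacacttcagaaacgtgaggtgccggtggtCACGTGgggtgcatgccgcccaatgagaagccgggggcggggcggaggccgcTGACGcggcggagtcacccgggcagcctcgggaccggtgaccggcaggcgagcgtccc

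Both strands were searched. The E-box occurred in the windows of 3 members, at 1 place in the first Per1 window, at 1 place in Cry1 and at 3 places in Ciart, against 7.15% of all 32851 windows. The core TGACG occurred in 3 members, in both Per1 windows, Cry1 and Cry2, against 20.8% of all windows. The full response element TGACGTCA, which contains the core on both strands, was found in 0 members and in 1.79% of all windows. The D-box TTATGTAA was found in Per3 alone, at 2 places, and in 0.938% of all windows, and the nuclear receptor element AGGTCA was found in Per1 and Nr1d2 and in 16.3% of all windows. A match is a description of letters and not of a site in use.

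Per3, the third period gene, had 0 counts in every library, and no level can be given for it. In GENCODE M21 it lies at chr4:151003652-151044665 on the minus strand of GRCm38, wholly within Camta1 on the same strand, which held 518650 counts over the 8 libraries. Of 818 protein-coding genes that lie wholly inside 1 other listed gene, 816 (99.8%) were also at 0 in all 8 libraries, against 1853 of 15068 (12.3%) of those that overlap none. The zeros of Per3 therefore cannot be read as lack of expression. Nr1d1 overlaps Thra on the opposite strand over 14.5% of its span, and Dbp overlaps Sphk2 on the opposite strand over 14.4%. Among the genes wholly inside a gene on the opposite strand only, 493 of 493 were at 0, and on the same strand only 319 of 321. Genes inside an opposite-strand gene were thus without counts as well. Whether the counting used strand is not given in the sources used here. Counts from the shared stretches of Nr1d1 and Dbp may therefore be missing, and these 2 values are uncertain. The overlaps are shares of gene span, introns included, and the share of counts affected was not measured.

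The libraries held 111901829 to 179479978 counts, and a member's count ranged from 998 for Ciart to 25850 for Cry2, so that counting error was 0.622% to 3.17% of a value. Levels are in CPM, counts relative to library size after TMM scaling over the 8 libraries. They are compared between groups and not between genes, because gene length enters them. The NAc libraries stood apart by replicate number. Markers of striatal projection neurons summed to 2356 and 825 CPM in cocaine replicates 1 and 2, and to 2906 and 767 CPM in NAc home-cage replicates 1 and 2, whereas markers of cortical glutamatergic neurons summed to 901 and 1369 CPM with cocaine and to 736 and 1514 CPM in the home cage. In mPFC the striatal sum was 145 to 157 CPM and the cortical sum 2203 to 2416 CPM over the 4 libraries. In tissue, fewer cells of a type and less RNA per cell cannot be told apart.

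After social defeat, most clock repressors were slightly higher in mPFC, and no member passed the test. Of the 9 members measured, 6 had both social defeat libraries above both home-cage libraries (Per1, Bhlhe40, Per2, Cry1, Cry2 and Ciart), 1 had both below (Dbp), and Nr1d1 and Nr1d2 overlapped. Over all 18027 genes tested, 16.4% had both libraries above and 17.8% both below. The differences were small, at most 1.22-fold, and 0 members passed at an adjusted p under 0.05 in edgeR's quasi-likelihood test with Benjamini-Hochberg adjustment over all genes, against 0.704% of all genes. At an unadjusted p under 0.05 there were 5 members (Per1, Bhlhe40, Ciart, Cry1 and Per2), against 7.14% of all genes.

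Per1 (chr11:69095217-69109960, plus strand, GRCm38), a repressor of the loop that responds quickly to stimuli, came nearest to the threshold. It had 164 and 164 CPM in social defeat libraries, against 130 and 140 CPM in home-cage libraries. Both defeat libraries were higher, and they differed from each other by less than the home-cage pair did. The fold was 1.22 (95% interval 1.09 to 1.35), a log2 change of 0.28 with a standard error (SE) of 0.0759 and an adjusted p of 0.061 in edgeR. DESeq2's Wald test put the same log2 change at 0.29 with an adjusted p of 0.0121, so Per1 was the 1 member called by DESeq2, which called 0.493% of all genes. Without home-cage replicate 2 edgeR's adjusted p was 0.0301, and in the other fits that left out 1 library it was 0.205 to 0.792.

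Bhlhe40 (chr6:108660629-108666925, plus strand, GRCm38), the transcriptional repressor also called DEC1, had 160 and 148 CPM in social defeat libraries, against 124 and 140 CPM in home-cage libraries. The groups did not overlap, but the gap between the nearest libraries was smaller than the spread within either group. The fold was 1.17 (95% interval 1.05 to 1.30; adjusted p = 0.297 in edgeR). The acutely inducible pair thus had a median log2 difference of 0.25, beside 0.14 for the other 7 measured members and -0.0028 for all genes.

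The difference between the inducible pair and the other members was a matter of degree, because most of the others lay on the same side. Per2, the period protein that also sets the pace of the loop, had 108 and 109 CPM in social defeat libraries, against 95.1 and 100 CPM in home-cage libraries, a fold of 1.11 (95% interval 1.0001 to 1.23; adjusted p = 0.699 in edgeR). Ciart, also known as CHRONO, had 13.87 and 13.65 CPM after social defeat, against 11.99 and 11.47 CPM in the home cage, a fold of 1.17 (95% interval 1.04 to 1.33; adjusted p = 0.431 in edgeR). In both genes the 2 defeat libraries lay close together and above the home-cage pair. Ciart, whose window holds 3 E-boxes, had a log2 difference of 0.23, next to 0.22 for Bhlhe40, so it ranked with the inducible pair in size.

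The cryptochromes, which bind and block CLOCK and BMAL1 together with the period proteins, were also higher in both defeat libraries. Cry1 had 25.2 and 24.5 CPM in social defeat libraries, against 21.9 and 22.0 CPM in home-cage libraries, a fold of 1.13 (95% interval 1.01 to 1.27; adjusted p = 0.614 in edgeR). Cry2 had 189 and 181 CPM in social defeat libraries, against 166 and 169 CPM in home-cage libraries, a fold of 1.10 (95% interval 0.994 to 1.23; adjusted p = 0.744 in edgeR). The groups did not overlap in either gene.

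The nuclear receptors of the second loop and the output factor differed least or lay on the other side. Nr1d1 had 89.5 and 85.8 CPM in social defeat libraries, against 84.9 and 89.3 CPM in home-cage libraries, and the groups overlapped (fold 1.01, 95% interval 0.907 to 1.12). Nr1d2 had 91.5 and 97.9 CPM after social defeat, against 92.9 and 84.1 CPM in the home cage, and the groups overlapped too (fold 1.07, 95% interval 0.963 to 1.19). Dbp, the D-box activator, was the only member with both defeat libraries lower, at 52.9 and 51.5 CPM, against 57.3 and 55.7 CPM in home-cage libraries (fold 0.924, 95% interval 0.831 to 1.03). The adjusted p in edgeR was 0.998 for Nr1d1, 0.937 for Nr1d2 and 0.897 for Dbp.

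**Figure D1:**
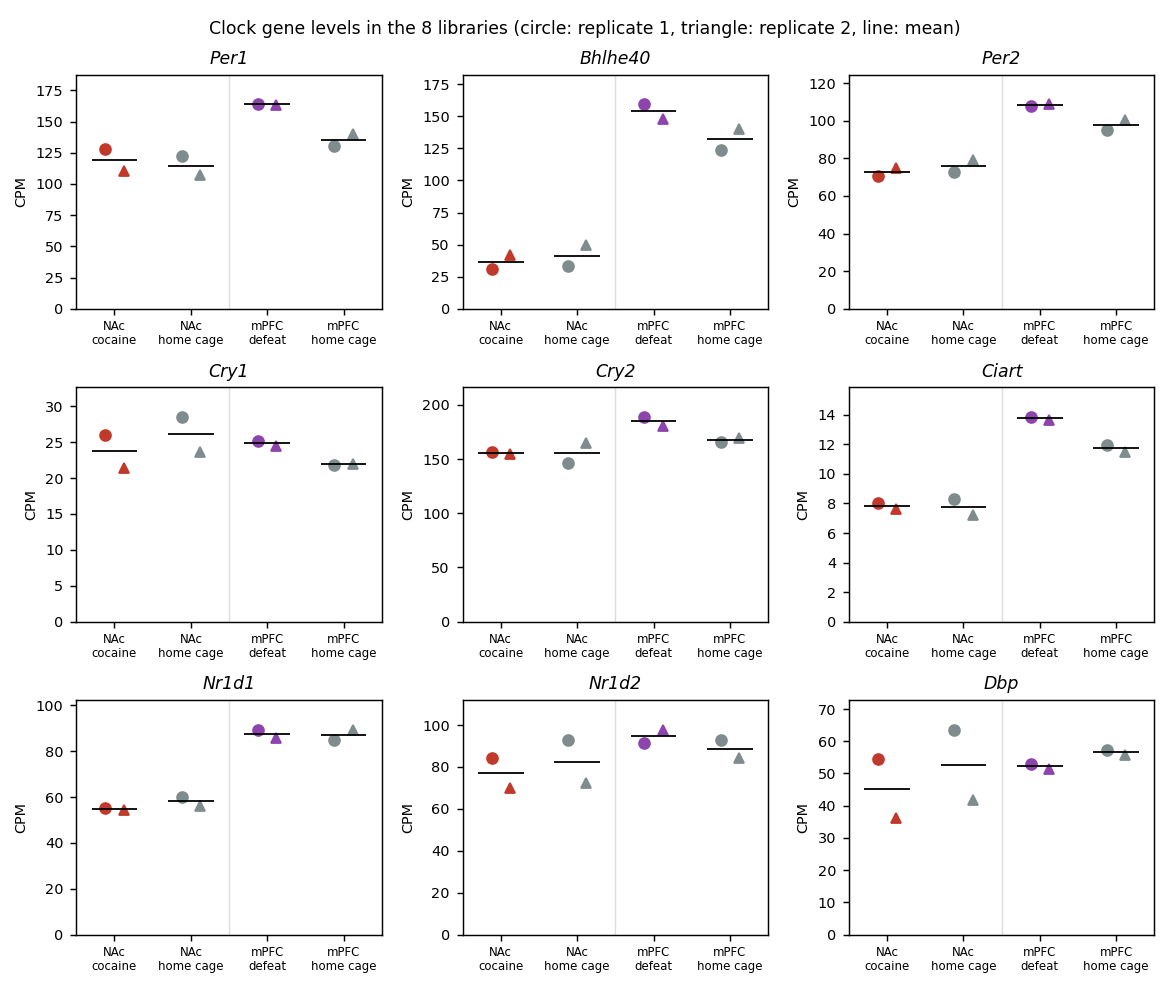
Levels of the 9 measured clock genes in CPM (vertical axes, each with its own range) in cocaine and home-cage libraries of NAc and in social defeat and home-cage libraries of mPFC. Circles are replicate 1, triangles replicate 2 and lines the group means. Per1 in mPFC lies at 164 CPM in both defeat libraries and at 130 and 140 CPM in the home-cage libraries, and in NAc the 2 replicates of a group lie further apart than the groups do for Dbp.

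Classical immediate early genes of the same libraries give a scale for these sizes. All 8 that were compared (Arc, Dusp1, Egr1, Fos, Fosb, Junb, Npas4, Nr4a1) rose in edgeR's test after social defeat. Their summed level was 1355 and 1404 CPM in social defeat libraries, against 625 and 668 CPM in home-cage libraries, and their log2 differences had a median of 1.57 and a smallest value of 0.51, for Egr1. The largest log2 difference of a clock member, 0.28 for Per1, was below that smallest value.

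Of the 9 cell type marker lists, blood was the 1 with genes that passed between the mPFC groups. The 6 oligodendrocyte markers summed to 1029 and 1132 CPM in social defeat libraries, against 1402 and 1167 CPM in home-cage libraries, all 6 with a negative log2 difference (median -0.22), of which 0 passed and 5 had an unadjusted p under 0.05 in edgeR. Haemoglobin and other blood markers summed to 58.3 and 53.0 CPM in social defeat libraries, against 19.5 and 19.7 CPM in home-cage libraries, and all 3 of 5 that were tested rose, while Alas2 was at 0 in all libraries. The part of either list in the clock gene differences was not tested.

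The activators and modifiers of the clock were read from a list of other clock genes. Of 19 other clock genes tested in mPFC, 0 passed in edgeR, 12 had a positive and 7 a negative difference, and the median log2 difference was 0.02. Nfil3, which represses at D-boxes in opposition to DBP, had the smallest p, with 8.92 and 8.27 CPM in social defeat libraries, against 6.81 and 7.34 CPM in home-cage libraries (log2 difference 0.28, SE 0.101, adjusted p = 0.312 in edgeR). The next was Fbxl21, an F-box protein that acts on cryptochromes, at a log2 difference of -0.17 (SE 0.121). Among the activators the log2 difference was -0.04 for Arntl, 0.04 for Clock and -0.07 for Npas2.

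With cocaine conditioning in NAc no member passed the test, whose spread between libraries includes the difference between replicates 1 and 2 that both groups shared. In edgeR's test 0 of 9 members passed, as did 0% of the 18418 genes tested, and DESeq2 called 0 members and 4 genes. At an unadjusted p under 0.05 there were 0 members, against 1.15% of all genes, or 211 genes. No member had both cocaine libraries above both home-cage libraries, against 11.8% of all genes, and 1, Nr1d1, had both below, against 11.9%. The median log2 difference was -0.06 for the inducible pair, -0.08 for the other 7 and -0.01 for all genes.

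Per1 had 128 and 110 CPM in cocaine libraries, against 122 and 107 CPM in NAc home-cage libraries, and the groups overlapped (fold 1.04, 95% interval 0.823 to 1.32). Bhlhe40 had 31.3 and 41.8 CPM in cocaine libraries, against 33.3 and 49.3 CPM in NAc home-cage libraries, and the groups overlapped again (fold 0.884, 95% interval 0.559 to 1.40). These intervals do not leave out a change of the size measured for the same genes in mPFC. The 8 immediate early genes had a summed level of 525 and 525 CPM in cocaine libraries, against 292 and 396 CPM in NAc home-cage libraries, with a median log2 difference of 0.73, of which 0 passed and 5 had an unadjusted p under 0.05 in edgeR.

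Per2 had 70.8 and 74.6 CPM in cocaine libraries, against 72.7 and 78.9 CPM in NAc home-cage libraries, and Cry1 had 26.0 and 21.4 CPM, against 28.5 and 23.6 CPM. Cry2 had 157 and 154 CPM in cocaine libraries, against 146 and 165 CPM in NAc home-cage libraries, and Ciart had 8.06 and 7.62 CPM, against 8.31 and 7.22 CPM. The groups overlapped in each of these 4 repressors. Nr1d1, the member with both cocaine libraries lower, had 55.1 and 54.5 CPM, against 60.1 and 56.1 CPM in NAc home-cage libraries, a log2 difference of -0.08 (SE 0.0802). Nr1d2 had 84.3 and 69.8 CPM in cocaine libraries, against 92.7 and 72.4 CPM in NAc home-cage libraries. Dbp had 54.4 and 36.1 CPM in cocaine libraries, against 63.6 and 41.8 CPM in NAc home-cage libraries, a log2 difference of -0.22 (SE 0.292). In Nr1d2 and Dbp, replicate 1 was higher than replicate 2 in both groups.

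**Figure D2:**
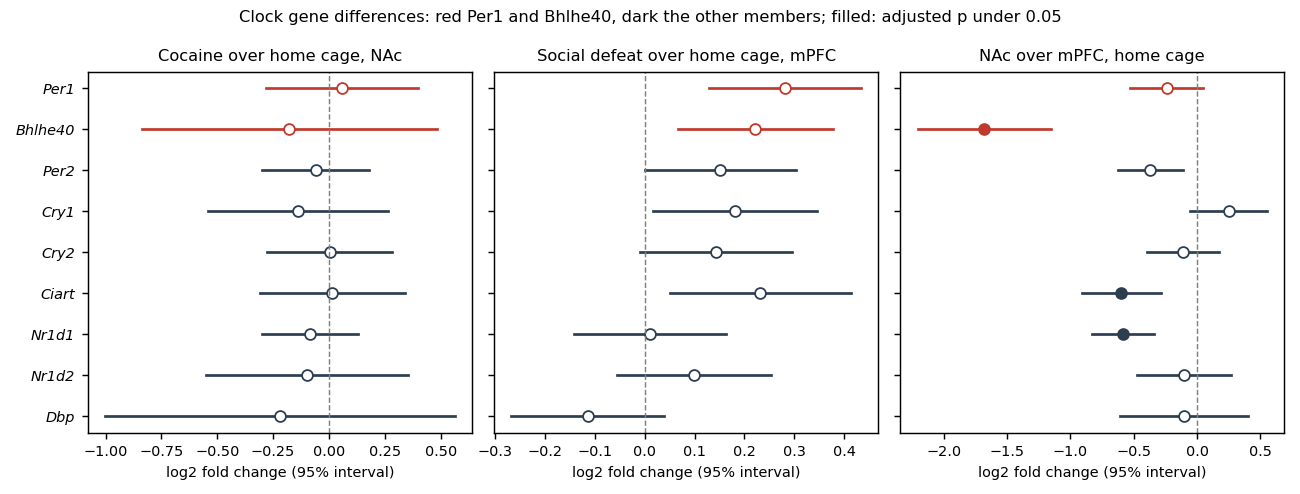
Log2 fold changes (horizontal axes, each panel with its own range) of the 9 measured clock genes for cocaine over home cage in NAc, social defeat over home cage in mPFC, and NAc over mPFC in home-cage mice. Bars are 95% intervals, red marks Per1 and Bhlhe40, and filled points have an adjusted p under 0.05 in edgeR. Filled points occur for Bhlhe40, Ciart and Nr1d1 in the comparison of regions alone.

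Within NAc, replicate number went with larger differences than treatment did for several members. The log2 ratio of replicate 1 to replicate 2 for Dbp was 0.59 in cocaine libraries and 0.61 in home-cage libraries, whereas cocaine over home cage was -0.23 in replicate 1 and -0.21 in replicate 2. For Bhlhe40 the ratio of the replicates was -0.42 in cocaine libraries and -0.57 in home-cage libraries, and for Nr1d2 it was 0.27 and 0.36. Cry1 had 0.28 and 0.27, and Per1 had 0.22 and 0.19. Over the 9 members, 6 were higher in replicate 1 in both groups, 2 (Bhlhe40 and Per2) were higher in replicate 2 in both, and Cry2 was mixed. The share with 1 sign in both groups was 88.9% of members, against 72.6% of all genes tested. The same libraries differed in regional markers. Drd2, the dopamine receptor of indirect-pathway striatal neurons, had a ratio of 1.74 in cocaine libraries and 2.26 in home-cage libraries. Fezf2, a factor of deep-layer cortical neurons, had -1.16 and -1.61. Cux2, of the same cortical list, did not keep to 1 side. It had 70.2 and 81.0 CPM in cocaine replicates 1 and 2, and 77.0 and 60.5 CPM in NAc home-cage replicates 1 and 2. The part of tissue composition in the clock gene values was not tested.

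Within a replicate number, cocaine over home cage had 1 sign in both numbers for 7 of 9 members. It was positive for Per1, at log2 ratios of 0.07 in replicate 1 and 0.04 in replicate 2. It was negative for 6, with -0.09 and -0.24 for Bhlhe40, -0.04 and -0.08 for Per2, and -0.13 and -0.14 for Cry1. Nr1d1 had -0.13 and -0.04, Nr1d2 had -0.14 and -0.05, and Cry2 and Ciart were mixed. Of all genes tested, 51.8% had 1 sign in both numbers and 25.9% were lower with cocaine in both. The labels do not say that a number marks shared animals or a batch, so these ratios are a description.

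**Figure D3:**
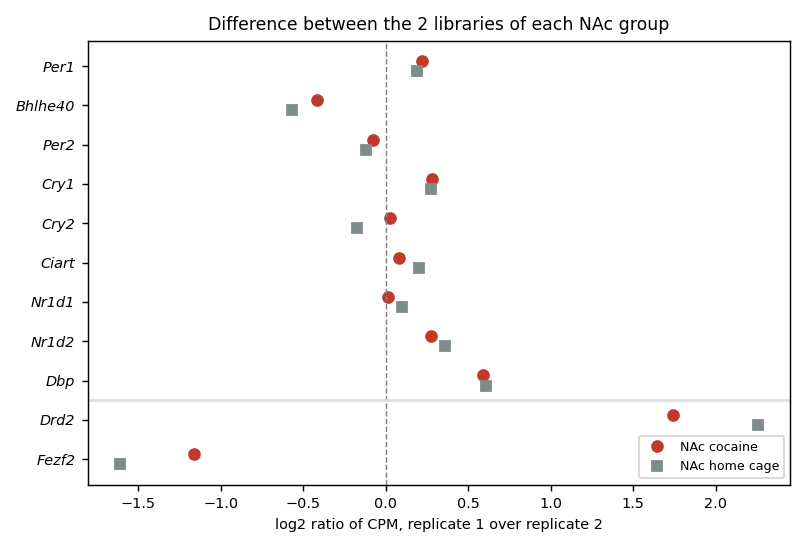
Log2 ratio of replicate 1 to replicate 2 (horizontal axis) in the cocaine and the home-cage libraries of NAc for the 9 measured clock genes and for the regional markers Drd2 and Fezf2. Dbp lies at 0.59 with cocaine and 0.61 in the home cage, Bhlhe40 at -0.42 and -0.57, and Drd2 at 1.74 and 2.26.

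Of the 19 other clock genes, 0 passed in NAc, and the smallest p belonged to Rorb, a nuclear receptor, with a log2 difference of 0.23. The activator Npas2, which can stand in for CLOCK and is abundant in forebrain, had 394 and 239 CPM in cocaine libraries, against 395 and 183 CPM in NAc home-cage libraries, with replicate 1 higher in both groups as for Dbp. It was named after its values were seen.

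The response to cocaine in NAc was set against the response to social defeat in mPFC as a contrast over all 8 libraries, in which region and experience cannot be told apart. All 9 members had a lower log2 change with cocaine than with social defeat, with a median log2 difference of -0.21, while 9413 of all 18783 genes tested had a negative one and their median was -5e-04. In edgeR 0 members passed, as did 0% of all genes (415 genes, or 2.21%, at an unadjusted p under 0.05), 0 members had an unadjusted p under 0.05, and DESeq2 called 0 members and 2 genes. The value was -0.22 (SE 0.147) for Per1, -0.40 (SE 0.286) for Bhlhe40, -0.21 (SE 0.106) for Per2 and -0.32 (SE 0.170) for Cry1. It was -0.22 (SE 0.134) for Ciart and -0.10 (SE 0.326) for Dbp, and lay between -0.20 and -0.09 for Cry2, Nr1d1 and Nr1d2. A difference between the 2 experiences was therefore not shown for any member. Other lists lay to 1 side of this contrast too, with negative values for 10 of 10 striatal projection neuron markers (median -0.21), 8 of 8 immediate early genes (median -0.42) and 3 of 3 blood markers (median -1.17), and positive values for 6 of 6 oligodendrocyte markers (median 0.56). Their part in the clock gene values was not tested. Of the 19 other clock genes 0 passed here.

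Bhlhe40, Nr1d1 and Ciart were lower in NAc than in mPFC of home-cage mice. Of 9 members, these 3 passed between the regions in edgeR, all lower in NAc, against 12.4% of the 18300 genes tested. Bhlhe40 fell to 33.3 and 49.3 CPM in NAc, against 124 and 140 CPM in mPFC, a fold of 0.313 (95% interval 0.217 to 0.451; adjusted p = 0.0123 in edgeR). Nr1d1 fell to 60.1 and 56.1 CPM in NAc, against 84.9 and 89.3 CPM in mPFC, a fold of 0.666 (95% interval 0.563 to 0.788; adjusted p = 0.0229 in edgeR). Ciart fell to 8.31 and 7.22 CPM in NAc, against 11.99 and 11.47 CPM in mPFC, a fold of 0.661 (95% interval 0.533 to 0.820; adjusted p = 0.0397 in edgeR). No library of 1 region reached the level of the other in these 3 genes. These 3 calls did not hold in every fit that left out 1 library. The calls over all genes also changed widely among those fits. Without mPFC home-cage replicates 1 and 2 in turn, the log2 change was -1.77 and -1.60 for Bhlhe40. It was -0.63 and -0.56 for Nr1d1, and -0.57 and -0.64 for Ciart. Region, deposited table and the hour of collection cannot be told apart.

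In Per1 and Bhlhe40, paired by their inducibility, both NAc libraries lay below both mPFC libraries, but the difference in Per1 did not pass. Per1 had 122 and 107 CPM in NAc home-cage libraries, against 130 and 140 CPM in mPFC home-cage libraries, a log2 difference of -0.24 (SE 0.115, adjusted p = 0.227 in edgeR), whereas that of Bhlhe40 was -1.68 (SE 0.209). Per2 lay at a log2 difference of -0.37 (adjusted p = 0.0765 in edgeR, 0.0384 in DESeq2). Cry1 was the 1 member with both NAc libraries above both mPFC libraries, at a log2 difference of 0.25 that did not pass (adjusted p = 0.228 in edgeR). For 6 members both NAc libraries lay below both mPFC libraries, and 2 overlapped. The share of all genes was not computed for this measure between the regions, so these counts are a description only. The log2 differences of Cry2, Nr1d2 and Dbp lay between -0.11 and -0.10.

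Of the 19 other clock genes, 2 passed between the regions in edgeR, against 12.4% of the 18300 genes tested. Hlf, a D-box factor of the same family as DBP, fell to 126 and 94.6 CPM in NAc, against 208 and 183 CPM in mPFC (log2 difference -0.83, adjusted p = 0.0378 in edgeR), while Dbp itself had a log2 difference of -0.10.

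Over the 4 groups, the mean Per1 level was 119 ± 12.8 CPM with cocaine and 115 ± 10.6 CPM in the NAc home cage, and 164 ± 0.467 CPM after social defeat and 135 ± 7.02 CPM in the mPFC home cage (SD, n = 2 each). The cocaine and NAc home-cage means differed by less than 1 SD. Bhlhe40 averaged 36.5 ± 7.45 CPM with cocaine and 41.3 ± 11.3 CPM in the NAc home cage, and 154 ± 8.30 CPM after social defeat and 132 ± 11.4 CPM in the mPFC home cage (SD, n = 2 each). Its 2 NAc groups overlapped and lay below both mPFC groups. As a description over the same 8 libraries, which share region, the genes with levels most like Per1 were Pak1ip1, Dusp14 and Crnkl1 (Pearson r of log2 CPM 0.972, 0.968 and 0.967, among 10952 genes ranked). Dusp14, a dual-specificity phosphatase, had 53.4 and 41.7 CPM with cocaine and 45.5 and 42.3 CPM in the NAc home cage, and 73.5 and 74.0 CPM after social defeat and 60.8 and 62.0 CPM in the mPFC home cage. The genes most like Bhlhe40 were Paqr7, Acsl5 and Fam217b, with r of 0.997, 0.996 and 0.996.

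Set against the mean of the other members within each library, Per1 stood at a log2 distance of 1.43 and 1.44 in social defeat libraries, against 1.20 and 1.31 in mPFC home-cage libraries. In NAc this distance was 1.42 and 1.37 in cocaine libraries, against 1.26 and 1.25 in home-cage libraries. In both regions the 2 libraries taken after an experience had the larger distance. In NAc the other members were themselves lower with cocaine, at a mean log2 CPM of 5.59 and 5.42, against 5.67 and 5.49 in home-cage libraries, and the log2 ratio of Per1 itself within a number was 0.07 and 0.04. This measure was chosen after values were seen and is a description, with no test. For Per1 and Bhlhe40 together the distance was 1.41 and 1.37 in social defeat libraries, against 1.17 and 1.32 in mPFC home-cage libraries, and it overlapped in NAc, at 0.40 and 0.67 with cocaine, against 0.32 and 0.69 in the home cage.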

How the data were processed

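Total RNA libraries of NAc and mPFC were sequenced, 8 in 4 groups of 2. Per the submitters' processing notes, the authors used STAR 2.7.1a for alignment to mm10 and featureCounts for counting, and they deposited raw counts per symbol, 1 table per region. The featureCounts version, annotation, strand setting and the handling of overlapping genes were not given in the sources used. The counts were fitted in R 4.3.3 with edgeR 4.0.16 (filterByExpr, TMM, estimateDisp, glmQLFit, glmQLFTest) over all genes in 4 comparisons, with Benjamini-Hochberg adjusted p under 0.05 as the threshold. Each comparison used its own libraries, and the difference between the responses used all 8. DESeq2 1.42.0, RLE factors, no filter, a fit of all 8 libraries, the replicate block and leaving out each library were alternatives. Each standard error (SE) is the size of the log2 fold change over the root of its F.

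The members and gene lists were chosen with earlier results of these data known. All members are named in every comparison. Of the 19 other clock genes, those that passed are named, or the 2 with the smallest p. Some results this rule would name are not reported here. For Per1 and Bhlhe40 the 3 genes most alike in log2 CPM (prior count 2, mean of at least 5 CPM) are named, with Gm and Rik symbols skipped. Gene spans came from GENCODE M21. The fits were tested on simulated data with independent libraries and no difference between replicate numbers. That test therefore does not cover the shared difference between NAc replicates. Libraries of a group differed by more than sampling noise. Library totals were 111901829 to 179479978 counts, and intervals of counts cover counting error only. Figures were drawn in python 3.11.15 with matplotlib 3.10.9.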

Additional observations from a re-analysis of the deposited data

How the results depend on the processing

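In mPFC, 0 members passed in edgeR and 1, Per1, passed with no low-count filter (adjusted p = 0.0429 in edgeR) and 1 with DESeq2. In the fit of all 8 libraries Per1's adjusted p was 1 in edgeR, 2 members rather than 5 had an unadjusted p under 0.05, and 5 genes rather than 127 passed. Leaving out 1 library at a time gave 0 to 1 members in mPFC and 0 to 7 members between the regions, where Dbp had an adjusted p of 0.768 with all 4 libraries and 9.7e-04 without NAc home-cage replicate 1 in edgeR. In both comparisons the calls over all genes changed among these fits as well. The ranges of member counts are therefore not particular to the clock genes. Such fits leave 1 sample in an arm, which is assumed to vary like the others, and the cause of the changes was not tested.

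For cocaine against home cage in NAc, 8 of 9 members changed sign when 1 library was left out, which unbalances the replicate numbers, and Nr1d1 stayed negative (-0.13 to -0.03). The log2 change ranged from -0.0561 to 0.17 for Per1, -0.43 to 0.13 for Bhlhe40, -0.12 to 2e-04 for Per2, -0.28 to 0.0068 for Cry1, -0.0795 to 0.0909 for Cry2, -0.0837 to 0.12 for Ciart, -0.27 to 0.0920 for Nr1d2 and -0.55 to 0.12 for Dbp. With no low-count filter, Cry2 in NAc was at -0.0011. In mPFC Nr1d1 ranged from -0.0216 to 0.0421. Between the regions Nr1d2 ranged from -0.29 to 0.0601 and Dbp from -0.43 to 0.16, and Dbp ranged from -0.43 to 0.22 in the difference between the responses. Of the members' values under all alternatives, 304 kept their direction and side of the threshold, 11 passed newly, 6 no longer passed and 21 changed sign.

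Same-numbered NAc libraries deviated together (r = 0.609 across genes), but the labels do not tie the numbers to an animal, batch or day. With the replicate block, 0 members and 38 of 18418 genes passed for cocaine in NAc. At an unadjusted p under 0.05 there was 1 member, Dbp (log2 change -0.22, adjusted p = 0.387 in edgeR), against 1307 of all genes. Between the regions, where the correlation was 0.0783, 3 members passed with the block, against 2174 of 18300 genes. A replicate block within NAc for the difference between the responses, chosen after seeing the data, left 0 members called. Their smallest adjusted p was 0.435 in edgeR. At an unadjusted p under 0.05 there were 4 members, against 1251 of 18783 genes.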

Other observations

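Ratios of clock output to activator were compared across libraries as values only, chosen after the data were seen. The log2 ratio of Dbp to Arntl, the gene of BMAL1, was -0.64 and -1.26 in cocaine replicates 1 and 2, against -0.36 and -1.09 in NAc home-cage replicates 1 and 2. It was -0.52 and -0.59 in social defeat libraries, against -0.39 and -0.57 in mPFC home-cage libraries. Replicate 2 of NAc had the lower ratio in both groups, and the mPFC groups overlapped. The log2 ratio of Nr1d1 to Arntl was -0.62 and -0.67 in cocaine libraries, against -0.44 and -0.66 in NAc home-cage libraries. It was 0.24 and 0.15 in social defeat libraries, against 0.18 and 0.11 in mPFC home-cage libraries, so the regions did not overlap. These are ratios of counts uncorrected for length, to be read between libraries only.

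Of the 19 other clock genes, 9 were higher in replicate 1 of both NAc groups, as Dbp was, 7 were higher in replicate 2 of both and 3 were mixed. The share with 1 sign in both groups was 84.2%, against 72.6% of all 18418 genes tested. Of those, 6683 were higher in replicate 1 of both and 6695 in replicate 2 of both. The genes named next are examples, picked outside the naming rule for this list. Rora, a nuclear receptor that activates Arntl, had 981 and 716 CPM in cocaine replicates 1 and 2, against 967 and 597 CPM in NAc home-cage replicates 1 and 2. Bhlhe41, the DEC2 repressor related to Bhlhe40, had 58.4 and 42.9 CPM with cocaine, against 65.1 and 48.8 CPM in the home cage. In both genes, replicate 1 was higher in both groups. Rorb ran the other way, with 115 and 132 CPM in cocaine replicates 1 and 2, against 91.8 and 118 CPM in the home cage, and so did Nfil3, with 7.75 and 10.3 CPM, against 5.53 and 8.86 CPM. The part of tissue composition in these values was not tested.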
